A study of Mus musculus with 27 samples.

Results

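The IL-4 response of irradiated mouse macrophages was described in 12 RNA-seq libraries, out of 18 from irradiated cells and 27 in the series. The 12 were chosen by value. Among libraries of FLASH- or standard-irradiated cells, a library counted as LPS state at 500 CPM or more of Irg1, the itaconate-producing enzyme that LPS induces, as IL-4 state at 100 CPM or more of Arg1 (arginase 1), and as control state otherwise. This gave 6 IL-4-state and 6 control-state libraries, while the other 6 were in the LPS state and are not described. Irg1 was at 1282 CPM in the lowest LPS-state library and 30.9 CPM in the highest of the others. Arg1 was at 631 CPM in the lowest IL-4-state library and 12.2 CPM in the highest of the others. These 2 genes chose the libraries, so they are given as a description and were left out of the tests.

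Bone marrow cells of C57BL/6 mice (strain C57/B6) received 5 Gy of protons in FLASH mode or in standard mode, or 0 Gy. FLASH gives the dose at a very high rate and standard irradiation at a conventional one. All cells were then grown for 7 days with CSF-1 at 10 ng/ml, the factor that turns marrow cells into macrophages, and kept for 2 days with IL-4 at 20 ng/ml (M2) or in control medium (M0). Another treatment, LPS at 100 ng/ml (M1), belongs to the other libraries. Irradiation thus came before differentiation, and the irradiated M0 cells carry the same dose as the M2 cells.

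Labels and values disagreed in 5 replicate 1 libraries. By the rule, the libraries labelled FLASH M0 replicate 1 and standard M1 replicate 1 were in the IL-4 state, with 655 and 643 CPM of Arg1. The library labelled FLASH M1 replicate 1 was in the control state, and those labelled FLASH M2 replicate 1 and standard M2 replicate 1 were in the LPS state, with 1557 and 1715 CPM of Irg1. Tests were therefore made by label on replicates 2 and 3, where label and value coincide: 4 M2 libraries (2 FLASH, 2 standard) against 4 M0 libraries (2 FLASH, 2 standard). The other 4 members, all replicate 1, are outside the main fit and are given as values without a test there. The labels do not state if the replicates are distinct cultures or mice. The p-values therefore cover only the spread among these libraries, which may be technical.

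The 8 tested libraries held 20.7 to 25.0 M assigned reads each, as read back from the step between low values. Mitochondrially encoded genes took 1.28% to 1.41% of the signal in M2 and 1.13% to 1.44% in M0 libraries. The 10 most abundant genes took 13.5% to 14.4% in M2 and 16.1% to 16.9% in M0 libraries. All values are CPM scaled by library, and fold changes are log2 differences of CPM + 0.5, a scale that understates the change of genes near 0. A gene was called at a limma adjusted p below 0.05 over all 13392 genes tested. In such bulk samples, fewer cells of a type and less RNA per cell cannot be told apart.

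IL-4 binds a receptor made of IL-4Rα and a partner chain, whose associated JAK kinases phosphorylate the transcription factor STAT6. STAT6 dimers bind palindromic DNA and switch on the alternative activation program of macrophages, known for lectins, chitinase-like proteins, chemokines that recruit other type 2 cells, arginine use, cell fusion and a metabolism rich in oxidative phosphorylation. SOCS family proteins, induced by the same pathway, restrain it.

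The letters STAT6 prefers are TTC and GAA with 4 free bases between them, and they read the same on both strands. They were searched in the 250 bases before the annotated start of each gene (RefSeq, GRCm38.p6), and 5.85% of all 32851 such windows held them. Of the 10 genes with the highest fold changes described below, 9 had a window and 2 of these held the letters, Retnla and Rbp4. Their windows are shown with those of Ccl17 and Itgax, a type 2 chemokine and an integrin that were also higher in M2, picked from the genes described below after the match was seen. Capitals mark the match, and all lie upstream of the annotated start, on the gene's own strand. The Retnla window is chr16:48842359-48842608 on the plus strand, with the match starting 145 bases before the start. The Rbp4 window is chr19:38125322-38125571 on the minus strand (120 bases before), the Ccl17 window chr8:94810203-94810452 on the plus strand (154 bases) and the Itgax window chr7:128129300-128129549 on the plus strand (127 bases). A match is a run of letters and was not tested as a binding site.
Retnla: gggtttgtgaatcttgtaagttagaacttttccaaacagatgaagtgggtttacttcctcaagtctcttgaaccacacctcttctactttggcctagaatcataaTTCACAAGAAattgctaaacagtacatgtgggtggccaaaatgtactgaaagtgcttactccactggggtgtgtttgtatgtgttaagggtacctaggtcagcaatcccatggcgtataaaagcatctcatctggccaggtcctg
Rbp4: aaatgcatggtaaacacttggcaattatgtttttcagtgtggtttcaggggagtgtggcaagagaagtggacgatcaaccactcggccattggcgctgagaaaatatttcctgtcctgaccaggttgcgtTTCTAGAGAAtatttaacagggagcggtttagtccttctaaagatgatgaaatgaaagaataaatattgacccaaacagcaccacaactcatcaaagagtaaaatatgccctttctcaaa
Ccl17: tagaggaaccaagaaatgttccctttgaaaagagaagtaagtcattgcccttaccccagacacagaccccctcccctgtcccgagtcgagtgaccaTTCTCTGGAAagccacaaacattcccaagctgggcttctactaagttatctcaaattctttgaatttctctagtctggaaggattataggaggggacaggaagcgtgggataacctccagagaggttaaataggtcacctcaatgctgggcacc
Itgax: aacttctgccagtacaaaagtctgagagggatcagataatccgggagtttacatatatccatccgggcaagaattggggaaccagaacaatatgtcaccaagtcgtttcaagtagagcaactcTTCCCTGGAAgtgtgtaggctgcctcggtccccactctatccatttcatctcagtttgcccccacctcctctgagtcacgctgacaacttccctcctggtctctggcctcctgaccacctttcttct

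Irradiated macrophages responded to IL-4 with 1572 higher genes, 11.7% of those tested, and 1506 lower genes, 11.2% (limma, adjusted p below 0.05). In all, 23% of genes were called, of which 388 were at least 2-fold higher and 339 at least 2-fold lower. The largest increases by the naming rule were those of Chil3, Retnla, Mgl2, Kcnd3, Rnase2a, Ccl22, Ocstamp, Ddx4, Il31ra and Rbp4. The largest decreases were those of Cd14, Stab1, Cxcr3, S1pr1, Pou2f2, Gpr162, Igfbp4, Ctla2b, Tlr2 and C5ar1. The median fold change of all tested genes was −0.01 on the log2 scale.

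**Figure D1:**
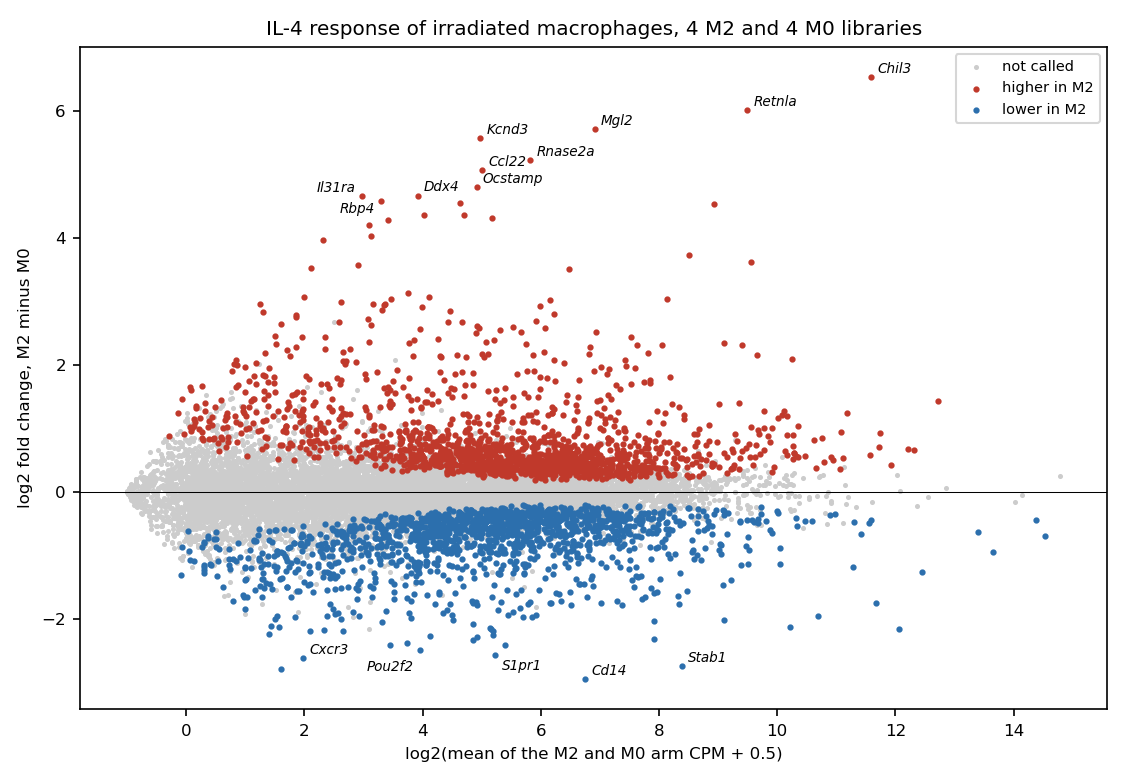
Log2 fold change, M2 minus M0 (vertical axis), against mean level, log2(CPM + 0.5) (horizontal axis), for 13392 genes in the 4 M2 and 4 M0 irradiated libraries of replicates 2 and 3. Red points are the 1572 higher genes, blue points the 1506 lower ones and grey points genes not called; the labelled genes are the 10 highest and 5 of the 10 lowest by the naming rule, with Chil3 at 6.53 and Cd14 at −2.95.

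Chil3, a secreted chitinase-like protein also called Ym1, was at 6210 and 5814 CPM in FLASH M2 and 5906 and 6483 CPM in standard M2 libraries, against 56.5 and 56.5 CPM in FLASH M0 and 52.4 and 110 CPM in standard M0 libraries. Retnla, the secreted protein RELMα, was at 1306 and 1402 CPM in FLASH M2 and 1444 and 1497 CPM in standard M2, against 20.9 and 13.6 CPM in FLASH M0 and 23.6 and 31.2 CPM in standard M0. For both genes every M2 library lay above every M0 library. In M2 the modes were interleaved for Chil3, while both FLASH libraries lay below both standard ones for Retnla. Chil3 rose by 6.53 (SE 0.46, limma adjusted p = 1.45e-06) and Retnla by 6.01 (SE 0.17, adjusted p = 1.85e-10) on the log2 scale. The markers named with the rule were thus high in the libraries labelled M2. Chil3 shares sequence with Chil4, which was at 2.70 to 4.64 CPM in M2 and 0 to 0.0482 CPM in M0 libraries, so reads of one may have been counted for the other.

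Of 22 tested effectors of alternative activation, 19 were higher in M2 and 1 was lower, where 11.7% and 11.2% of all tested genes were higher and lower. These shares are the background of every list count of the irradiated response given below. Their median fold change was 2.71, against −0.01 over all genes. Mgl2, a galactose-binding lectin, was at 244 and 226 CPM in FLASH M2 and 257 and 218 CPM in standard M2, against 3.03 and 3.27 CPM in FLASH M0 and 3.77 and 6.82 CPM in standard M0 (log2 5.71, SE 0.34, limma adjusted p = 2.56e-07). Its relative Clec10a rose by 1.46 (adjusted p = 0.0067), and reads of the pair could be split. Rnase2a, an eosinophil-type ribonuclease, was at 147 and 98.3 CPM in FLASH M2 and 101 and 92.5 CPM in standard M2, against 1.53 and 1.89 CPM in FLASH M0 and 3.77 and 2.97 CPM in standard M0. It rose by 5.22 (SE 0.16, adjusted p = 2.55e-10), and its relative Ear2 by 3.51 (adjusted p = 0.000129), with the same limit on shared reads. No M2 library overlapped an M0 library for any of these genes.

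Slc7a2, the cationic amino acid transporter that brings arginine to arginase, was at 661 and 756 CPM in FLASH M2 and 578 and 718 CPM in standard M2, against 50.3 and 53.5 CPM in FLASH M0 and 49.6 and 48.1 CPM in standard M0. Its rise of 3.73 had an SE of 0.11 and an adjusted p of 1.85e-10 (limma). Among members chosen for naming after their values were seen, Flt1 (a VEGF receptor, log2 4.36), Pdcd1lg2 (the checkpoint ligand PD-L2, 4.03) and Ptgs1 (cyclooxygenase 1, 2.55) rose as well. Fn1 (fibronectin) rose by 3.62 and was uneven within M2, at 1864 and 871 CPM in FLASH M2 and 1778 and 1030 CPM in standard M2, against 57.1 to 173 CPM in M0 libraries. Mrc1, the mannose receptor CD206, rose by 1.28 (adjusted p = 0.00245), at 1434 to 1716 CPM in M2 and 568 to 761 CPM in M0. The member that fell was F13a1, a coagulation factor subunit of macrophages, at 2.16 to 3.76 CPM in M2 and 6.53 to 11.8 CPM in M0 (log2 −1.49, adjusted p = 0.00398). Arg1 itself, which chose the libraries, was at 631 to 1057 CPM in M2 and 6.06 to 11.1 CPM in M0.

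**Figure D2:**
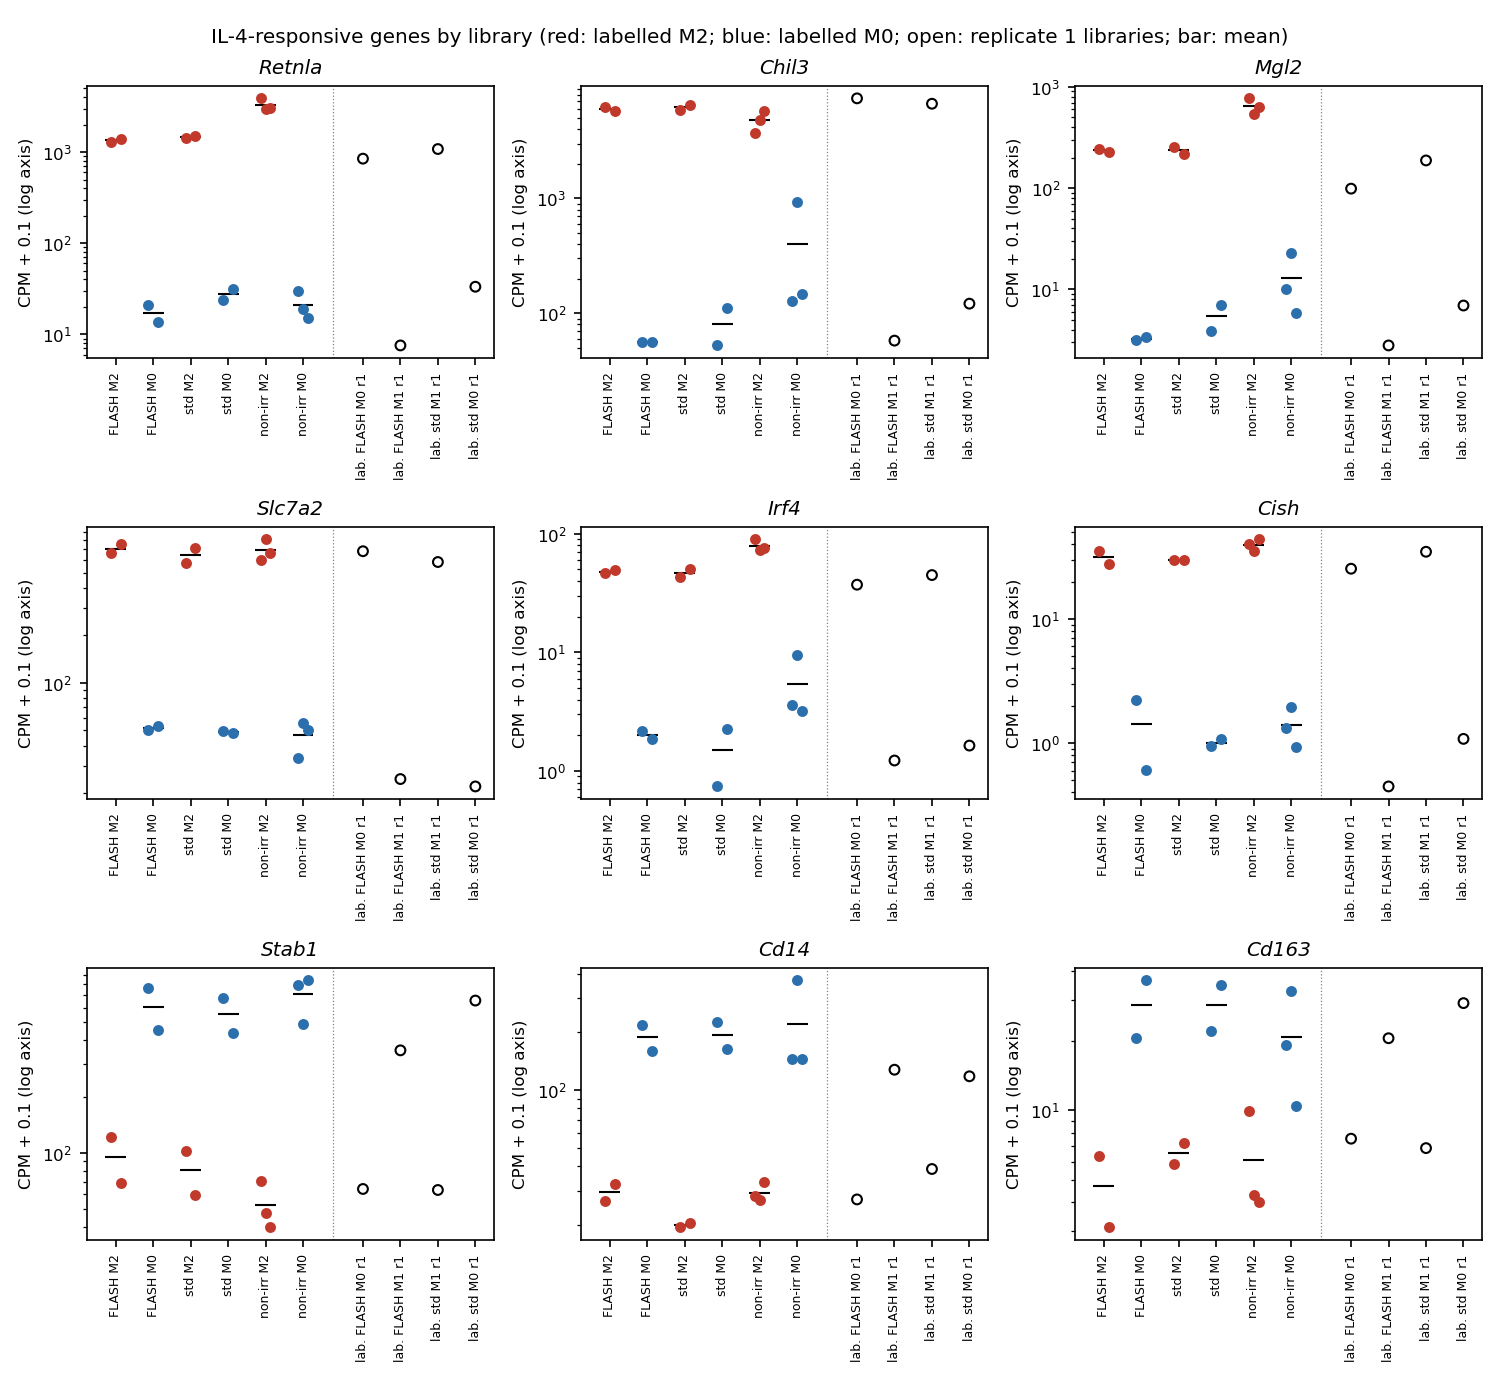
CPM + 0.1 on a log axis for 9 genes, by library: FLASH, standard and non-irradiated groups as labelled (red M2, blue M0, bars for group means; replicates 2 and 3 for irradiated cells, replicates 1 to 3 without irradiation) and, right of the dotted line, 4 replicate 1 libraries named by their labels (open points). Retnla lies between 1306 and 1497 CPM in the irradiated M2 libraries and between 13.6 and 31.2 CPM in the irradiated M0 libraries; Stab1, Cd14 and Cd163 run the other way.

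Of 9 tested chemokines that attract type 2 and other leukocytes, 8 were higher in M2 and none was lower, with a median of 2.16. Ccl22, a ligand of CCR4, was at 26.7 and 116 CPM in FLASH M2 and 29.8 and 75.4 CPM in standard M2, against 0.788 and 0.782 CPM in FLASH M0 and 1.20 and 1.56 CPM in standard M0. It rose by 5.06 (SE 0.56, limma adjusted p = 4.68e-05), and varied within M2 by more than within M0. Ccl24 (eotaxin-2) was at 3.24 to 7.09 CPM in M2 and 0.146 to 0.602 CPM in M0 (log2 2.64, adjusted p = 4.59e-05). Ccl17, the other CCR4 ligand, was at 0.519 to 1.31 CPM in M2 and was listed at 0 in all 4 M0 libraries, so no fold is given.

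The remaining chemokines were named after their values were seen. Ccl6 was at 1131 to 1487 CPM in M2 and 204 to 417 CPM in M0 (log2 2.16), and Ccl9 at 1018 to 1232 CPM in M2 and 200 to 281 CPM in M0 (2.31). The monocyte attractants Ccl7 and Ccl2 rose by 2.33 and 2.08 (limma adjusted p = 0.000199 and 0.00569). Ccl12 rose by 1.27 (adjusted p = 0.0256). It was no longer called without FLASH M0 replicate 2, FLASH M2 replicate 3, standard M0 replicate 2, standard M0 replicate 3 or standard M2 replicate 3 (adjusted p = 0.0835, 0.109, 0.0503, 0.0796 and 0.108).

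Receptor and signaling genes had 2 of 9 tested members higher and 3 lower, and the inhibitors of the pathway had 5 of 12 higher and 4 lower. Il4ra, the IL-4-binding chain, was at 20.5 and 18.9 CPM in FLASH M2 and 24.5 and 28.1 CPM in standard M2, against 35.1 and 41.6 CPM in FLASH M0 and 37.1 and 34.1 CPM in standard M0 (log2 −0.69, SE 0.11, limma adjusted p = 0.000536). Stat6 was at 199 to 248 CPM in M2 and 202 to 256 CPM in M0 and was not called (−0.06, SE 0.13, adjusted p = 0.787). Jak2, a kinase shared by several cytokine receptors, was at 116 to 151 CPM in M2 and 26.5 to 40.0 CPM in M0 (2.02, adjusted p = 2.45e-05). Irs2, an adaptor of the IL-4 receptor, fell by 0.67 (adjusted p = 0.00917).

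The receptor-associated kinases Jak1 and Jak3 were called at 0.24 and −0.46 (limma adjusted p = 0.0185 and 0.0233), Jak3 being named after its values were seen. Jak1 was not called without FLASH M0 replicate 2, FLASH M2 replicate 3, standard M0 replicate 3 or standard M2 replicate 3 (adjusted p = 0.0566, 0.0681, 0.0669 and 0.0797). Jak3 was not called without FLASH M0 replicate 2, FLASH M0 replicate 3, FLASH M2 replicate 2, standard M0 replicate 3 or standard M2 replicate 2 (0.0672, 0.0527, 0.0735, 0.0717 and 0.1).

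Cish, a SOCS family inhibitor of STAT signaling, was at 34.9 and 27.4 CPM in FLASH M2 and 29.7 and 29.8 CPM in standard M2, against 2.12 and 0.506 CPM in FLASH M0 and 0.842 and 0.975 CPM in standard M0. It rose by 4.35 (SE 0.35, limma adjusted p = 2.64e-06), with no overlap between M2 and M0. Its relatives Socs2 (2.87, adjusted p = 9.32e-05) and Socs1 (2.72, adjusted p = 0.000517) rose with it. Socs1 was at 8.65 to 19.6 CPM in M2 and 1.37 to 1.89 CPM in M0. Named after their values were seen, Socs6 (0.84) and the phosphatase Ptpn2 (0.46) were the other 2 that rose, and the phosphatase Ptpn1 (−0.40) was among those that fell. Ptpn6, the phosphatase SHP-1, fell by 0.86 (adjusted p = 0.000715). The remaining lower members were Bcl6 (−0.61), a repressor of STAT6 targets, and Pias1 (−0.34), named after its values were seen. Bcl6 was not called without FLASH M0 replicate 3, FLASH M2 replicate 3, standard M0 replicate 3 or standard M2 replicate 3, and Pias1 without any of 6 of the 8 libraries, with adjusted p up to 0.0994 and 0.126. Pias1 was also not called without a variance trend.

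Of 16 transcription factors of the IL-4 program, 9 were higher in M2 and 2 lower (median 1.10). Irf4, which drives alternative activation, was at 46.5 and 49.4 CPM in FLASH M2 and 42.8 and 50.0 CPM in standard M2, against 2.07 and 1.75 CPM in FLASH M0 and 0.642 and 2.14 CPM in standard M0. It rose by 4.54 (SE 0.36, limma adjusted p = 2.47e-06), again with no overlap. Nfil3 rose by 2.67 (adjusted p = 6.66e-08), at 37.4 to 53.9 CPM in M2 and 5.61 to 7.07 CPM in M0, and Batf3 by 2.34 (adjusted p = 1.30e-05). Tfec, a MITF family factor, rose by 1.12. Named after their values were seen, Bhlhe40 (1.95), Klf4 (1.89), the mitochondrial coactivator Ppargc1b (1.78), Egr2 (1.56) and Myc (1.08) rose as well. Bhlhe41, a relative of Bhlhe40, fell by 1.06 (adjusted p = 0.00505), at 60.2 to 86.0 CPM in M2 and 150 to 170 CPM in M0, and the nuclear receptor Rxra by 0.60.

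Genes of cell fusion and of osteoclast-type function were higher in 8 of 14 tested and lower in 1. Ocstamp, needed for fusion of macrophages into multinucleated cells, was at 53.6 and 69.4 CPM in FLASH M2 and 60.4 and 47.2 CPM in standard M2, against 1.33 and 1.10 CPM in FLASH M0 and 1.56 and 2.49 CPM in standard M0 (log2 4.80, SE 0.18, limma adjusted p = 2.20e-09). The related Dcstamp rose by 2.41 (adjusted p = 0.00274), at 22.8 to 34.8 CPM in M2 and 2.16 to 12.2 CPM in M0. The M2 and M0 ranges did not overlap in either gene. Nfatc1, the osteoclast regulator, was the member that fell (−0.45, adjusted p = 0.00327).

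Matrix genes were divided, with 5 of 21 higher and 6 lower. The metalloproteinase Mmp13, at 273 to 372 CPM in M2 and 51.9 to 66.9 CPM in M0, rose by 2.44 (limma adjusted p = 7.61e-07). The other higher members beside Fn1 were Mmp19 (1.96), Tgfbi (1.61) and Mmp12, macrophage elastase (1.43), named after their values were seen. Spp1 (osteopontin) was at 2818 to 3875 CPM in M2 and 7272 to 8350 CPM in M0 (−1.25, adjusted p = 0.000306). Lysosomal genes were divided too, with 4 of 26 higher and 9 lower: the bone-resorbing protease Ctsk rose by 1.74 (adjusted p = 0.000121) and Ctsl by 0.71, while Ctsh fell by 0.91 and the hexosaminidase Hexa by 0.89.

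The 4 other strong increases belonged to no list. Kcnd3, a voltage-gated potassium channel, was at 54.2 to 69.7 CPM in M2 and 0.705 to 0.966 CPM in M0 (5.57, SE 0.21, limma adjusted p = 2.49e-09). Ddx4, an RNA helicase known from germ cells, was at 21.9 to 37.5 CPM in M2 and 0.414 to 0.731 CPM in M0 (4.66, SE 0.25, adjusted p = 6.19e-08). Il31ra, a chain of the IL-31 receptor, was at 11.8 to 21.2 CPM in M2 and 0.046 to 0.16 CPM in M0 (4.66), and Rbp4, the plasma carrier of retinol, at 16.9 to 20.8 CPM in M2 and 0.201 to 0.341 CPM in M0 (4.58). In all of them the M2 and M0 ranges lay far apart.

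Many energy metabolism genes rose, each by a small amount. Of 25 nuclear genes of oxidative phosphorylation 20 were higher and none lower (median 0.44), and of 18 citrate cycle genes 15 were higher and none lower (median 0.40). Atp5b, a subunit of ATP synthase, was at 1050 to 1269 CPM in M2 and 635 to 721 CPM in M0 (0.79, SE 0.10, limma adjusted p = 0.000148), and Cyc1, cytochrome c1, at 94.0 to 112 CPM in M2 and 56.6 to 64.4 CPM in M0 (0.74). Fumarase, Fh1, rose by 0.77 (adjusted p = 0.000298). Of the 13 genes encoded in mitochondria 1 was higher, mt-Nd3 (0.44, adjusted p = 0.0111), and it was not called without FLASH M2 replicate 3 (adjusted p = 0.0561).

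Glycolysis genes were higher in 11 of 18 and lower in 1 (median 0.54). Hexokinase 2, Hk2, was at 143 to 154 CPM in M2 and 58.4 to 79.0 CPM in M0 (1.10, SE 0.10, limma adjusted p = 6.23e-06), and the phosphofructokinase Pfkp rose by 0.96. Arginine and polyamine enzymes were higher in 9 of 15 and lower in none; Srm, spermidine synthase, rose by 1.12 (adjusted p = 0.000675), at 47.0 to 55.8 CPM in M2 and 18.7 to 35.6 CPM in M0. Ribosome biogenesis factors were higher in 18 of 20 (median 0.58), with Rrs1 at 57.8 to 63.5 CPM in M2 and 27.5 to 29.8 CPM in M0 (1.11, adjusted p = 9.8e-07). Of 30 ribosomal proteins 1 was called, Rplp1 (0.31, limma adjusted p = 0.0352). It was not called without any 1 of 7 of the 8 libraries. Cholesterol synthesis had 2 of 22 higher, where 11.7% of all tested genes were higher. These were Dhcr7 (0.91) and Hmgcs1 (0.78), and Hmgcs1 was not called without FLASH M2 replicate 3 (limma adjusted p = 0.0544). Glul, glutamine synthetase, fell by 1.13 (adjusted p = 0.00101), whereas the serine synthesis enzyme Psat1 rose by 1.21.

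**Figure D3:**
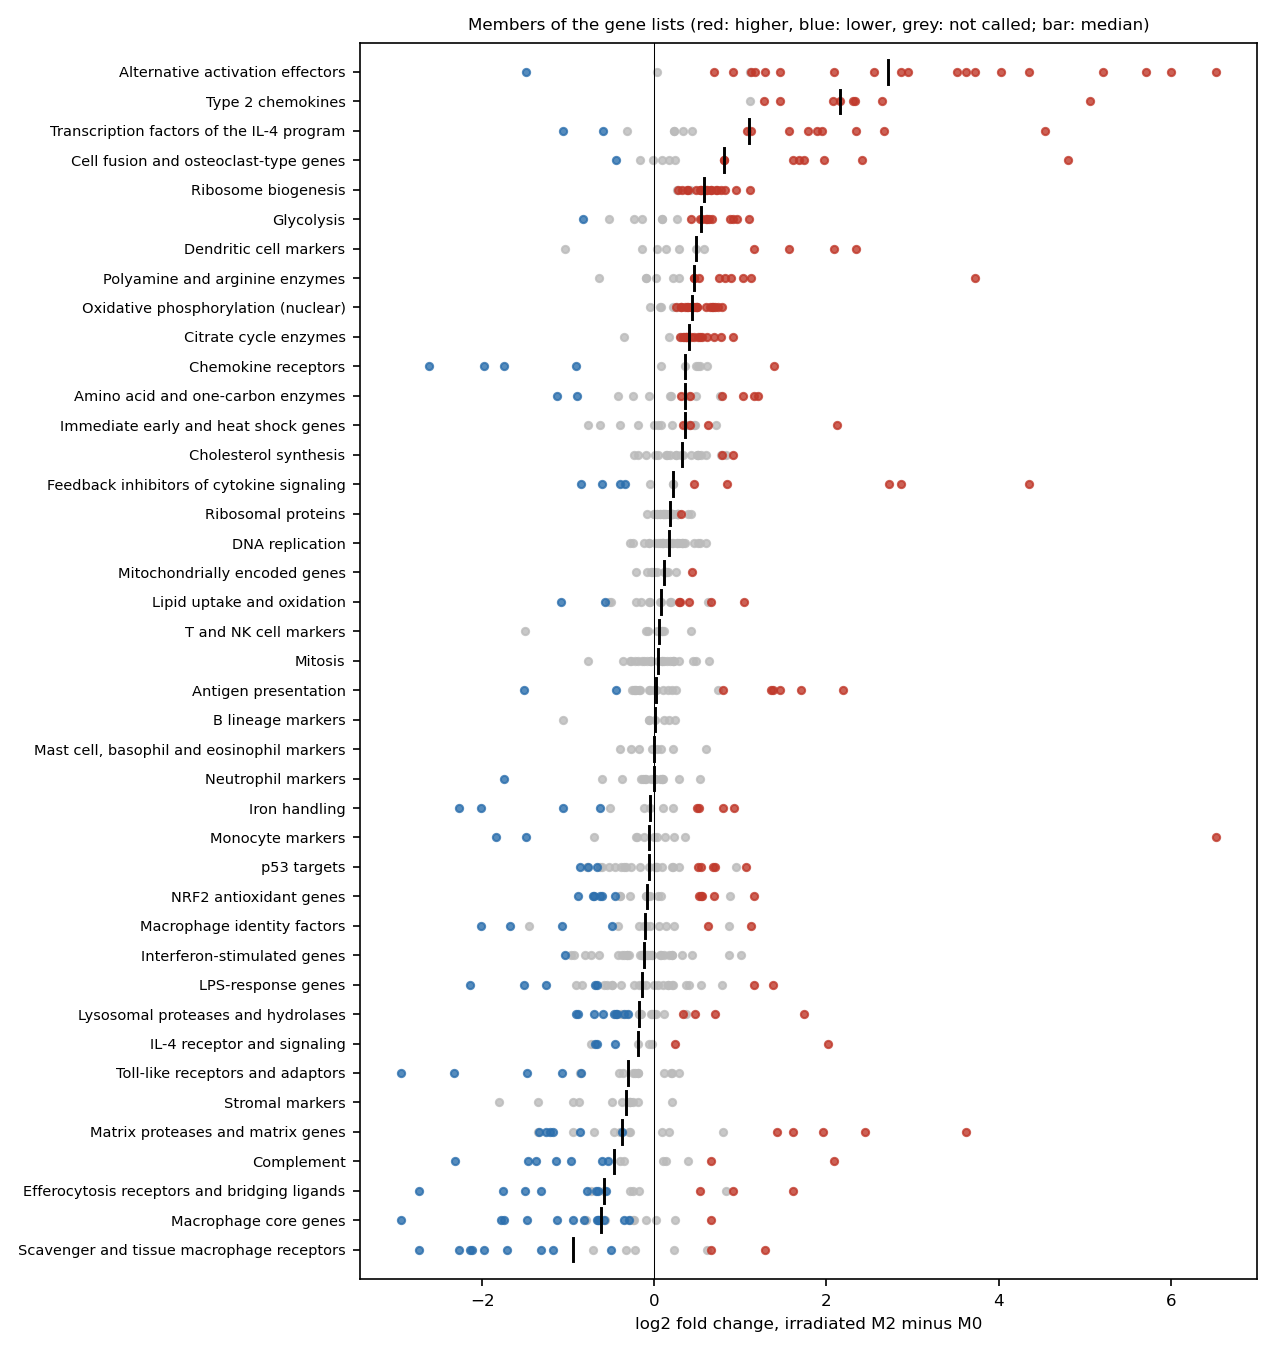
Log2 fold change, irradiated M2 minus M0, of every tested member of 41 gene lists, ordered by list median (black bar); red members were called higher, blue lower, grey not called. Alternative activation effectors have the highest median, 2.71, and scavenger receptors the lowest, −0.95, while replication and mitosis hold no called member.

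Of 16 scavenger and tissue macrophage receptors 9 were lower and 2 higher (median −0.95). Stab1, a scavenger receptor that also binds apoptotic cells, was at 121 and 68.6 CPM in FLASH M2 and 101 and 59.3 CPM in standard M2, against 759 and 453 CPM in FLASH M0 and 677 and 437 CPM in standard M0 (−2.74, SE 0.34, limma adjusted p = 0.000112). Cd163, the hemoglobin scavenger receptor, was at 3.01 to 7.14 CPM in M2 and 20.4 to 36.4 CPM in M0 (−2.27, SE 0.36, adjusted p = 0.000597). For both, all M2 libraries lay below all M0 libraries. The 2 higher members were Mrc1 and Cd36, a fatty acid and oxidized LDL receptor, at 6041 to 6517 CPM in M2 and 3610 to 4265 CPM in M0 (0.66, adjusted p = 0.00403).

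Efferocytosis genes, which act in uptake of dying cells, were lower in 8 of 17 and higher in 3, and the bridging ligand Gas6 fell by 1.76 (limma adjusted p = 3.76e-06), at 136 to 170 CPM in M2 and 453 to 558 CPM in M0. Complement genes were lower in 7 of 14 and higher in 2. The anaphylatoxin receptor C5ar1 was at 62.1 to 99.3 CPM in M2 and 357 to 453 CPM in M0 (−2.32, SE 0.24, adjusted p = 2.63e-05), and C1qc, a chain of C1q, at 240 to 320 CPM in M2 and 681 to 899 CPM in M0 (−1.47, adjusted p = 4.02e-05). The integrin Itgax rose by 2.09 (adjusted p = 0.00187), at 1686 to 2322 CPM in M2 and 328 to 670 CPM in M0. Core macrophage genes were lower in 13 of 22 and higher in 1 (median −0.62), and their summed level was 28618 to 32953 CPM in M2 and 40533 to 49636 CPM in M0 libraries. Identity factors were lower in 4 of 16 and higher in 2, with Maf at 88.9 to 105 CPM in M2 and 292 to 337 CPM in M0 (−1.68, adjusted p = 4.17e-06), Id3 at −2.01 and Irf8, named after its values were seen, at −1.07.

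Sensors of bacterial products were lower in 5 of 16 and higher in none. Cd14, the co-receptor for LPS, was at 26.3 and 32.2 CPM in FLASH M2 and 19.2 and 20.3 CPM in standard M2, against 217 and 160 CPM in FLASH M0 and 224 and 162 CPM in standard M0. It fell by 2.95 (SE 0.31, limma adjusted p = 3.84e-05). Tlr2, a receptor for bacterial lipoproteins, was at 5.71 to 12.3 CPM in M2 and 33.6 to 58.1 CPM in M0 (−2.33, adjusted p = 0.000567). Tlr9 (−1.48), Tlr13 (−1.08) and the inhibitory kinase Irak3 (−0.85), named after their values were seen, were the other 3. Chemokine receptors were lower in 4 of 11 and higher in 1. Cxcr3 was at 0.365 to 1.17 CPM in M2 and 5.41 to 7.47 CPM in M0 (−2.62, adjusted p = 4.06e-05), Cx3cr1 fell by 1.98, and Cxcr4 (−1.75) and Ccrl2 (−0.91) were named after their values were seen. Ccr1 rose by 1.39 (adjusted p = 0.000948), at 384 to 479 CPM in M2 and 141 to 175 CPM in M0.

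The remaining 5 of the 10 lowest genes were of other kinds. S1pr1, a receptor for sphingosine-1-phosphate, was at 7.31 to 14.2 CPM in M2 and 49.4 to 71.7 CPM in M0 (−2.57, limma adjusted p = 0.0014). The POU-family transcription factor Pou2f2 was at 2.45 to 5.79 CPM in M2 and 20.5 to 30.7 CPM in M0 (−2.49, adjusted p = 4.32e-06). Gpr162 (−2.41), the IGF-binding protein Igfbp4 (−2.40) and Ctla2b (−2.37) also fell, with no overlap of M2 and M0.

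Antigen presentation genes were higher in 6 of 24 and lower in 2, where 11.7% and 11.2% of all tested genes were higher and lower. Cd74, the invariant chain of MHC class II, was at 513 and 369 CPM in FLASH M2 and 323 and 273 CPM in standard M2, against 62.3 and 89.7 CPM in FLASH M0 and 86.8 and 78.0 CPM in standard M0 (2.19, SE 0.15, limma adjusted p = 8.36e-07). Ciita, the class II transactivator, was at 6.30 to 10.6 CPM in M2 and 1.56 to 3.21 CPM in M0 (1.70, adjusted p = 0.00504). The costimulator Cd86 and the class I gene H2-D1 were the lower ones (−1.51 and −0.45, adjusted p = 0.0159 and 0.0209). Cd86 was not called without FLASH M2 replicate 2, standard M0 replicate 2 or standard M2 replicate 2 (adjusted p = 0.0532, 0.0544 and 0.0521). H2-D1, whose reads may be shared with other class I genes, was not called without FLASH M0 replicate 3, FLASH M2 replicate 3, standard M0 replicate 3 or standard M2 replicate 2 (0.0815, 0.0727, 0.0841 and 0.067).

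Of 29 LPS-response genes 2 were higher and 5 lower, and of 35 interferon-stimulated genes none was higher and 1 was lower. The shares over all tested genes were 11.7% higher and 11.2% lower. Some lower calls were fragile. Ifitm3 (−1.04), Tnf (−0.69) and Nfkbia (−0.67) had limma adjusted p of 0.0429, 0.0415 and 0.0469. They were not called without any 1 of 6, 7 and 6 of the 8 libraries. Nos2, the inducible nitric oxide synthase of LPS-treated macrophages, was at 2.06 to 4.70 CPM in M2 and 0.292 to 2.37 CPM in M0 and was not called (0.79, limma adjusted p = 0.216). Marco, a scavenger receptor that LPS induces, fell by 2.14 (adjusted p = 0.00979), at 6.88 to 18.9 CPM in M2 and 31.2 to 79.9 CPM in M0. Iron handling genes were divided, with 4 of 13 higher and 4 lower. The iron exporter Slc40a1 was at 193 to 236 CPM in M2 and 821 to 1023 CPM in M0 (−2.01, adjusted p = 0.00337), and the transferrin receptor Tfrc at 4057 to 4802 CPM in M2 and 1902 to 2885 CPM in M0 (0.93, adjusted p = 0.00942).

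Of 27 p53 targets, which mark the radiation response, 5 were higher and 3 lower with IL-4 (median −0.07). Over all tested genes 11.7% were higher and 11.2% lower, so the lower count was near that share. Cdkn1a, the cell cycle inhibitor p21, was at 858 and 527 CPM in FLASH M2 and 765 and 630 CPM in standard M2, against 550 and 572 CPM in FLASH M0 and 592 and 652 CPM in standard M0. It was not called (0.21, SE 0.16, limma adjusted p = 0.379), and neither was Phlda3 (−0.27, SE 0.13, adjusted p = 0.149). The DNA repair gene Xpc fell by 0.87 (adjusted p = 0.000649), at 10.2 to 12.2 CPM in M2 and 18.8 to 22.2 CPM in M0. In the other direction, Aen rose by 0.50 (limma adjusted p = 0.0055), at 37.8 to 41.4 CPM in M2 and 25.1 to 31.9 CPM in M0. Without irradiation, Cdkn1a was at 301 to 353 CPM in M2 and 168 to 212 CPM in M0 libraries. None of 28 replication genes and 25 mitosis genes was called by limma, with 1 and 0 at an unadjusted p below 0.05. Mki67, the proliferation marker, was at 20.6 to 26.8 CPM in M2 and 17.3 to 28.9 CPM in M0 (0.15, SE 0.42, adjusted p = 0.851).

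Markers of other cell types that a marrow culture could hold were summed per library. Neutrophil markers had 1 of 17 called, Csf3r (−1.74), with summed levels of 53.5 to 91.7 CPM in M2 and 76.5 to 127 CPM in M0. T and NK cell markers (23.9 to 37.5 CPM in M2 and 52.6 to 112 CPM in M0, mostly Cd4) and stromal markers (53.3 to 153 CPM in M2 and 33.8 to 528 CPM in M0) had none called. B lineage markers (7.52 to 23.9 CPM in M2 and 8.68 to 23.7 CPM in M0) and mast cell markers (5.38 to 12.2 CPM in M2 and 6.90 to 13.5 CPM in M0) had none either. Of 8 B lineage and 12 mast cell markers, 5 and 8 were under 1 CPM in all 8 libraries, so a change could hardly be called there. Fcer1a and Cma1 were at 0 in all 8 libraries. At an unadjusted p below 0.05 (limma) the T and NK, B lineage, stromal and mast cell lists held 1, 1, 1 and 0 genes. Dendritic cell markers had 4 of 11 higher, Batf3, Itgax and, named after their values were seen, Zbtb46 (1.57) and Xcr1 (1.16). The last 2 were low. Over all 12 members, Zbtb46 was at 1.35 to 2.93 CPM in IL-4-state and 0.124 to 1.24 CPM in control-state libraries. Xcr1 was at 0.456 to 1.75 CPM and 0.0802 to 0.347 CPM there. Of 13 dendritic cell markers summed, 7 were under 1 CPM in all 8 tested libraries. Xcr1 was not called without any of 5 libraries (FLASH M0 replicates 2 and 3, FLASH M2 replicate 2, standard M0 replicate 2, standard M2 replicate 3; limma adjusted p up to 0.103). Their summed level of 1722 to 2354 CPM in M2 and 339 to 679 CPM in M0 was mostly that of Itgax. Monocyte markers had 1 of 12 higher, Chil3, and 2 lower, F13a1 and Treml4 (−1.84), with a median of −0.06, and Treml4 was not called without FLASH M0 replicate 2, standard M0 replicate 2 or standard M2 replicate 2 (limma adjusted p = 0.0628, 0.0518 and 0.0642). Their summed level was 5924 to 6572 CPM in M2 and 148 to 216 CPM in M0, mostly Chil3. The part of these markers in the other results was not tested.

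The 4 replicate 1 members, left out of the main fit, were set side by side within each mode, with the state taken from Arg1 and Irg1. Retnla was at 848 and 1081 CPM in the libraries labelled FLASH M0 replicate 1 and standard M1 replicate 1, against 7.46 and 33.2 CPM in those labelled FLASH M1 replicate 1 and standard M0 replicate 1. Chil3 was at 7426 and 6666 CPM in the first pair, against 57.7 and 121 CPM in the second. Of the 1572 genes higher by label in replicates 2 and 3, 1347 (85.7%) were higher in both IL-4-state libraries than in the control-state library of their mode, against 32.6% of all genes tested. Of the 1506 lower genes, 1196 (79.4%) were lower in both, against 32.9%. Over all 12 members, 994 (63.2%) of the higher genes had every IL-4-state library above every control-state library, against 8.75% of all genes, and 931 (61.8%) of the lower genes had every one below, against 8.26%. These shares describe libraries sorted by value and carry no test, and 8 of the 12 are those of the fit.

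The response after FLASH was then set against the response after standard irradiation. IL-4 raised 739 genes (5.52%) and lowered 630 (4.7%) after FLASH, and raised 726 (5.42%) and lowered 723 (5.4%) after standard irradiation. Across 13392 genes, which are not independent replicates, the fold changes of the modes correlated with a Pearson r of 0.673. No gene (0%) was called in the difference of the responses by limma, while 429 had an unadjusted p below 0.05. Of the counts within a mode, that after FLASH depended on each FLASH library: without FLASH M0 replicate 2, FLASH M0 replicate 3, FLASH M2 replicate 2 or FLASH M2 replicate 3, 289, 405, 330 or 275 genes were higher and 213, 244, 293 or 185 lower. That after standard irradiation depended likewise on its libraries: without standard M0 replicate 2, standard M0 replicate 3, standard M2 replicate 2 or standard M2 replicate 3, 291, 357, 342 or 286 genes were higher and 236, 314, 252 or 344 lower.

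Retnla rose by 0.55 more on the log2 scale after FLASH than after standard irradiation, with a 95% interval from −0.16 to 1.27 that includes 0. The intervals of Rnase2a (1.12, 0.42 to 1.81) and Il4ra (−0.51, −0.97 to −0.05) did not include 0, but neither was called (adjusted p = 1 and 1). For Chil3 the difference was 0.38 (−1.62 to 2.38), for Irf4 −0.42 (−1.97 to 1.14), for Slc7a2 0.05 (−0.41 to 0.51) and for Stab1 0.13 (−1.34 to 1.59), so differences within these bounds cannot be told from none. The smallest adjusted p, 0.0612 by limma, was that of Zfp462, a zinc finger gene. Zfp462 was at 12.5 and 7.57 CPM in FLASH M2 and 0.747 and 0.368 CPM in FLASH M0, while it was at 0.957 and 0.963 CPM in standard M2 and 2.57 and 3.61 CPM in standard M0 libraries. Its difference was 4.58, with an interval from 3.26 to 5.91. The libraries labelled FLASH M0 replicate 1 and standard M1 replicate 1, both in the IL-4 state, held 11.2 and 0.631 CPM. These values are levels in the IL-4 state alone, not a difference of responses, and carry no test. Over all 12 members the states overlapped, at 0.631 to 12.5 CPM with IL-4 and 0.368 to 3.61 CPM in the control state.

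**Figure D4:**
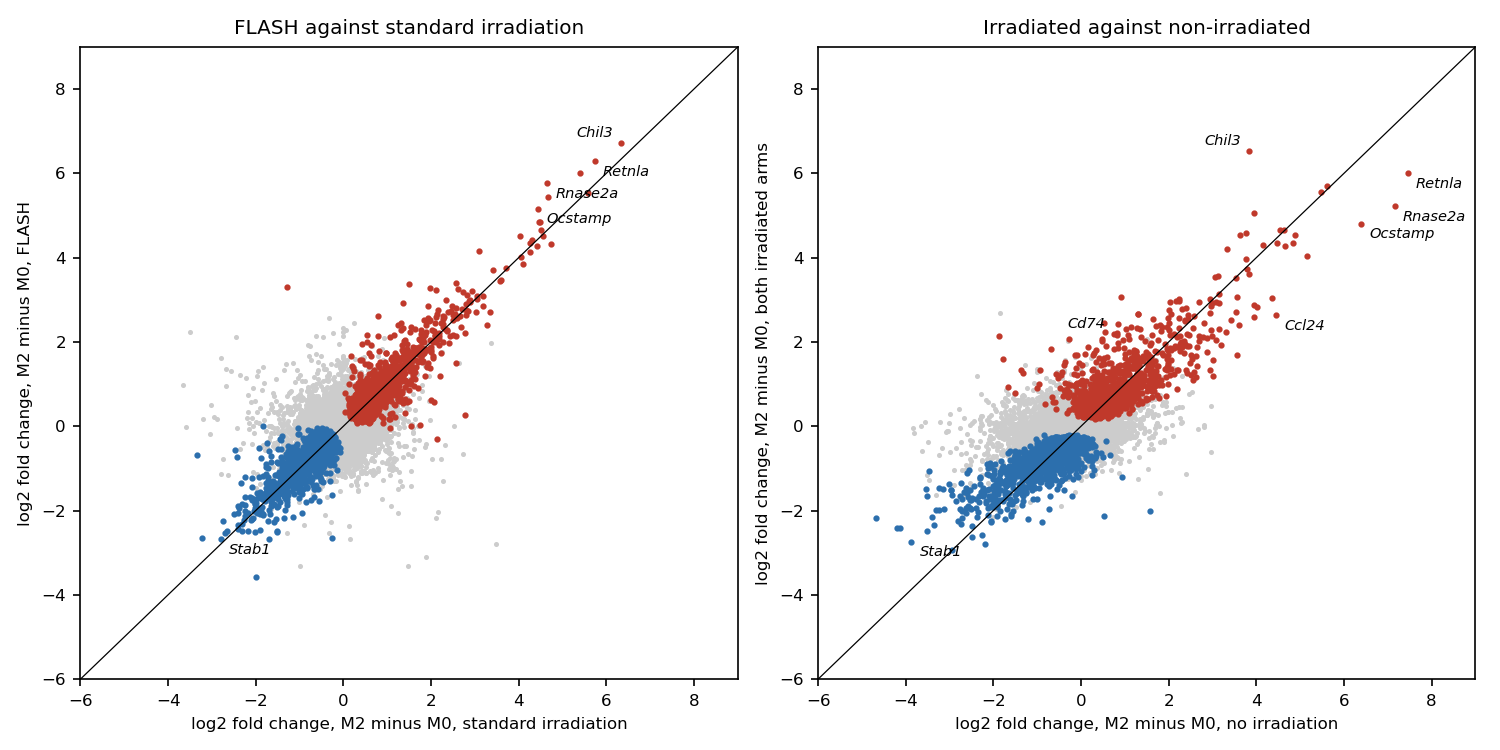
Log2 fold change, M2 minus M0, of 13392 genes: FLASH against standard irradiation (left) and both irradiated modes against no irradiation (right), replicates 2 and 3. Red and blue genes were called higher and lower in irradiated cells; the line marks equal response, and r is 0.673 and 0.674 across genes; Retnla, Rnase2a and Ocstamp lie right of the line in the right panel.

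The response of irradiated cells was also set against that of non-irradiated ones, where IL-4 raised 1226 genes (9.15%) and lowered 1200 (8.96%) in the same replicates 2 and 3. Of the higher genes 839 were shared, which is 53.4% of those in irradiated and 68.4% of those in non-irradiated cells. Of the lower genes 763 were shared, 50.7% and 63.6% of the same lists. Among shared genes, 79.1% of the higher and 83.7% of the lower had a smaller fold change in irradiated cells. The medians were 0.66 against 0.86 without irradiation for the higher genes, and −0.75 against −0.95 for the lower. Among genes called in irradiated cells, 94.5% of the higher and 95.8% of the lower had the same sign without irradiation, and 6 and 1 were called in the opposite direction. The fold changes correlated with a Pearson r of 0.674 across genes. Without irradiation 415 called genes were at least 2-fold higher and 609 at least 2-fold lower, against 388 and 339 in irradiated cells. The part of library number in these counts and sizes was not tested.

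The difference between these responses was called for 1 gene (0.00747%) by limma, the predicted gene I830127L07Rik, while 1275 had an unadjusted p below 0.05. This gene was at 0.0429 to 0.0912 CPM in irradiated M2 and 0 to 0.0457 CPM in irradiated M0 libraries, against 0.413 and 0.092 CPM in non-irradiated M2 and 5.70 and 5.22 CPM in non-irradiated M0 replicates 2 and 3. Its difference of 3.11 (adjusted p = 0.0133) thus rests on a fall with IL-4 without irradiation and levels near 0 in all irradiated libraries. It was called in 14 of 22 alternatives (adjusted p from 0.000261 to 0.161), and not without FLASH M0 replicate 3, FLASH M2 replicate 3, non-irradiated M0 replicate 2, standard M0 replicate 2 or standard M0 replicate 3. It was also not called with a pseudocount of 0.1, with only the compared groups, or with all libraries but the 5 at odds with their labels (adjusted p = 0.0888, 0.161 and 0.0898).

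Retnla was at 1306 to 1497 CPM in irradiated M2 and 13.6 to 31.2 CPM in irradiated M0 libraries, against 3007 and 3064 CPM in non-irradiated M2 and 18.9 and 14.9 CPM in non-irradiated M0 replicates 2 and 3. All irradiated M2 libraries thus lay below the non-irradiated ones. Its response was 1.45 smaller in irradiated cells (difference −1.45, 95% interval −2.07 to −0.83), which was not called (limma adjusted p = 0.088) and was called in none of 23 alternatives (adjusted p from 0.0506 to 0.685). Rnase2a differed by −1.94 (−2.55 to −1.34, adjusted p = 0.0645) and was called in 6 of 23 alternatives (adjusted p from 0.0143 to 0.671). Ocstamp differed by −1.59 (−2.26 to −0.92, adjusted p = 0.0847) and was called in 2 of 23 (from 0.0305 to 0.663). Both were at higher levels in non-irradiated M2, Rnase2a at 253 and 319 CPM and Ocstamp at 148 and 156 CPM. Ccl24, at 27.2 and 24.2 CPM in non-irradiated M2 and 1.12 and 0.391 CPM in non-irradiated M0, differed by −1.80 (adjusted p = 0.296) and was called with a pseudocount of 2 (adjusted p = 0.0367).

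Cd74 and Chil3 differed the other way, also without a call. Cd74 was at 2920 and 3647 CPM in non-irradiated M2 and 2273 and 1651 CPM in non-irradiated M0, so it was lower in irradiated cells in both states, and its response was 1.44 larger there (0.87 to 2.01, limma adjusted p = 0.0768). Chil3 was at 4810 and 5771 CPM in non-irradiated M2 and 923 and 147 CPM in non-irradiated M0. In non-irradiated M0 replicate 1, outside the fit, it was at 127 CPM, near the lower of these M0 values. Its difference of 2.69 (0.96 to 4.43, adjusted p = 0.308) was called without non-irradiated M0 replicate 3 (adjusted p = 0.0196), which leaves the M0 library at 923 CPM alone in its group. For Mgl2 (0.10, −1.16 to 1.36), Slc7a2 (−0.06, −0.46 to 0.34) and Cd14 (−0.01, −1.19 to 1.18) the intervals included 0.

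The effectors had 19 higher and 1 lower member in irradiated cells (median 2.71), against 15 and 1 in non-irradiated cells (median 2.79). The nuclear oxidative phosphorylation genes had 20 and 0 (median 0.44), against 14 and 0 (median 0.50). In both of these lists the median was no larger in irradiated cells. Other lists had a larger one there. Type 2 chemokines had 8 higher (median 2.16) against 3 (median 1.27), and glycolysis genes a median of 0.54 against 0.49. The irradiated contrast held more libraries, and their part in the counts was not tested. Neutrophil markers had 0 higher and 1 lower in irradiated cells (median −0.01), against 0 higher and 13 lower without irradiation (median −2.98). In irradiated cells 7 of these 17 markers were under 1 CPM in all 8 tested libraries, so a fall could hardly show in them. Interferon-stimulated genes had 0 and 1 (median −0.12), against 0 and 12 (median −1.41). No member of these lists was called in the difference of responses itself. The non-irradiated counts and medians rest on replicates 2 and 3, whose M0 libraries differed in some genes. Ifitm3 was at 284 CPM in non-irradiated M0 replicate 2 and 82.8 CPM in replicate 3, and Nfkbia at 90.8 and 40.7 CPM. In non-irradiated M0 replicate 1, outside the fit, they were at 94.3 and 32.9 CPM. Both genes were picked because they differed. How far M0 replicate 2 shaped the non-irradiated medians was not tested.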

How the data were processed

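Total RNA of cultured mouse macrophages was sequenced, and the authors deposited 1 table of signal per gene and library, TMM-scaled CPM on a linear scale. Per the submitters' processing notes, kallisto 0.46.1, R 4.0.5 and edgeR 3.36.0 were used, and the notes name GRCh38, a human build, for these mouse samples, so gene symbols were used and the only coordinates given are RefSeq's on GRCm38.p6. Depth was read back from the step between low values (20.7 to 25.8 M reads per library, with 96.5% to 98.2% of values whole within 0.01 read); since not all were whole, no count test was run. The table holds 19069 genes; 1 blank symbol was left out, and 0 columns were unused.

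Libraries were grouped by label. Genes reaching 1 CPM in 2 or more of 18 libraries (replicates 2 and 3) were tested in limma 3.58.1 (R 4.3.3, statmod 1.5.0) on log2(CPM + 0.5), with 9 group means, an intensity trend and robust variances on 9 residual degrees of freedom. The IL-4 response is the mean of FLASH and standard M2 minus M0; the 2 rule genes were removed. P-values were adjusted by Benjamini-Hochberg within a comparison. The pipeline was tested on simulated data.

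Members, gene lists and tests were chosen with earlier results of these data known. Named genes are the 10 highest and 10 lowest called folds (5 CPM or more on average in the higher group, no overlap, predicted models excluded), the 2 largest called folds each way in every one of 41 lists or its smallest p, a fixed set of 14 markers, and the leading gene of each difference, 118 in all. Another 55 were named after their values were seen, and 1 further gene is not reported here. Alternatives were the pseudocount, low-value filters, scaling, variance model, samples in the fit, a replicate block and leaving out each library; within-mode pairs of replicate 1 were added after seeing the data.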

Additional observations from a re-analysis of the deposited data

Results flagged for a closer look

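In 20 of 346 sets of 4 libraries, 1 library stood apart from the other 3 by Dixon's test, and chance flags about 1 in 20. Among M2 libraries, FLASH M2 replicate 2 was high for Cat (357 CPM, others up to 297), Gas6 (170, others up to 141) and Rnase2a (147, others up to 101). FLASH M2 replicate 3 was high for Il31ra (21.2, others up to 12.9), Ptgs1 (80.4, others up to 63.4) and Tlr9 (6.16, others up to 3.70). In standard M2, replicate 3 was low for Dcstamp (22.8, others from 32.9) and high for Dkc1 (34.9, others up to 20.7), and replicate 2 was low for Steap3 (326, others from 377).

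Among M0 libraries, FLASH M0 replicate 3 was high for Cat (685 CPM, others up to 545), Dkc1 (14.6, others up to 10.9), Slc40a1 (1023, others up to 852) and Tlr13 (633, others up to 553), and had I830127L07Rik at 0, where the others were at 0.0401 to 0.0457. FLASH M0 replicate 2 had Chil4 at 0, with the others at 0.0401 to 0.0482. Standard M0 replicate 3 was high for Bhlhe41 (170, others up to 153), Chil3 (110, others up to 56.5) and Srm (35.6, others up to 21.5). Standard M0 replicate 2 was high for Mmp13 (66.9, others up to 53.8) and low for Xcr1 (0.0802, others from 0.230).

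The response of I830127L07Rik differed between irradiated and non-irradiated cells by 3.11 on the log2 scale (limma adjusted p = 0.0133). Retnla was at 848 and 1081 CPM in the libraries labelled FLASH M0 replicate 1 and standard M1 replicate 1, which the main fit left out, against 13.6 to 31.2 CPM in the M0 libraries tested.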

How the results depend on the processing

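The higher and lower counts of the irradiated response stayed within 1.5 times of 1572 and 1506 in every alternative except all 27 libraries under their labels, which puts the 5 conflicting libraries into the groups: 379 and 475 genes, 0 and 0 after FLASH, 28 and 43 after standard irradiation. There 22 called named genes changed sign: Acadm −0.062, Cd36 −0.42, Clec7a −0.015, Egr2 −0.29, Fth1 0.12, H2-D1 0.039, Hadhb −0.23, Hmgcs1 −0.21, Ifitm3 0.36, Irak3 0.63, Itgb3 −0.011, Klf6 0.15, Marco 0.0095, Mmp12 −0.47, Mrc1 −0.37, Nfkbia 0.67, Nfkbiz 0.65, Pfkfb3 0.065, Tfrc −0.48, Tlr9 0.047, Tnf 1.15 and mt-Nd3 −0.19; Gata2, not called, did too (−0.15). Without the 5, 1712 and 1712 genes were called (1489 and 1431 shared). Leaving out single irradiated libraries gave 1119 to 1313 higher and 1068 to 1206 lower genes, 275 to 688 and 185 to 567 after FLASH, and 286 to 670 and 236 to 655 after standard irradiation. Of 161 called named genes 34 lost the call without at least 1 library. FLASH minus standard called 0 genes in every such fit, and 2 without a variance trend and 2 without the 5. Irradiated minus non-irradiated called 0 (pseudocount 0.1, the filter of 5 CPM, only the compared groups), 32 (pseudocount 2), 17 (no filter), 6 (no trend), 6 (all 27), 6 (without the 5) and 0 to 37 with single libraries left out, with 37 without non-irradiated M2 replicate 2 and 14 without non-irradiated M0 replicate 3. The cause of these changes was not tested. With a replicate block, 1349 and 1277 genes were called, 542 and 431 after FLASH, 526 and 507 after standard irradiation, 0 and 1 in the differences; the sample titles tie each number to 1 code whose meaning the labels do not give. Differences between replicates 2 and 3 correlated at −0.15 to 0.01 between irradiated groups over all genes tested. Over 6320 genes averaging 20 CPM or more, a limit chosen after seeing the data, they correlated at 0.24 between FLASH and standard M2. The correlation between FLASH and standard M0 was 0.24 too. Between M2 and M0 it was 0.17 within FLASH and −0.02 within standard irradiation. It was −0.16 between FLASH M2 and standard M0 and −0.04 between standard M2 and FLASH M0. These values were mixed, and the numbers were not taken as pairs. A shared source of same-numbered libraries was not tested. With 2 libraries per group, small differences between responses are beyond this depth of replication.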
